A study of Rattus norvegicus with 4 samples.

Results

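The aryl hydrocarbon receptor pathway was examined through 9 genes: the receptor Ahr, its partner Arnt, its repressor Ahrr, and the target genes Cyp1a1, Cyp1a2, Cyp1b1, Tiparp, Ugt1a6 and Aldh3a1. Members were the probes of the array, control spots aside, whose gene name was one of these symbols. All 9 genes were matched, by 14 of 45598 probes, and all named genes together numbered 18827. The cells were NR8383, a macrophage line established by lung lavage of a normal rat, taken after 20 passages and cultured submerged in serum-containing medium. All 4 samples formed 1 group, the submerged control, described as biological replicates. The labels give 4 h of submerged incubation in one place and 48 h after seeding in another, and which applies was not settled here. The control was set against no receptor ligand, receptor inhibitor or Ahr knockout. Nothing in the labels says how separate the 4 cultures were, so spread between them may be partly technical.

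The aryl hydrocarbon receptor is a ligand-activated transcription factor of the bHLH-PAS family. Without ligand it rests in the cytoplasm with HSP90 and the co-chaperone p23. Ligands such as dioxins, polycyclic aromatic hydrocarbons of combustion particles and tryptophan metabolites send it to the nucleus, where it pairs with ARNT and binds xenobiotic response elements whose core reads GCGTG. In the lung the pathway is known for the metabolism of inhaled aromatic hydrocarbons, and macrophages of several kinds are known to carry the receptor.

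Each sample's Cy3-labelled RNA was read on its own single-colour Agilent rat array. The values were processed signals in fluorescence units. Detection of a probe required that the scanner software mark more than 0.5 of its spots as well above background. Detection of a gene required 1 or more such probes on all 4 arrays. The 75th percentile of signal lay between 958 and 1489 units, and the lowest signal well above background lay between 16.7 and 20.3 units. The software also gives a weaker mark, positive and significant, which 3.9% to 6.8% of 308 negative control spots carried on an array, against 0.65% to 1.3% for the stronger mark. All 308 spots hold 1 control probe, so they do not show how background differs between probe sequences. Macrophage markers were detected for 8 of 8 genes (Cd68, Csf1r, Spi1, Itgam, Ptprc, Lyz2, Pparg and Cd36). Epithelial markers were detected on all arrays for 0 of 6 genes, although Scgb1a1 was well above background on 2 arrays and Sftpc on 1. Hepatocyte markers were detected for 0 of 5 genes, fibroblast markers for 2 of 5 (Col1a2 and Dcn) and endothelial markers for 3 of 5 (Cdh5, Pecam1 and Vwf). Their part in the signals below was not tested.

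The sequences of 4 probes are shown: the 1 probe of Ahr, the brightest probes of Cyp1b1 and Cyp1a2, and the probe that lists Ugt1a6 alone. They are the array's own 60-base oligonucleotides, given 5′ to 3′ with their rn4 positions from the files. The Ahr and Ugt1a6 probes shown each had 1 reading frame free of stop codons, and the Cyp1b1 and Cyp1a2 probes shown had 3 each. The Cyp1a2 probe covers 622 bases of genome with 60 bases of sequence, so genome sequence absent from the probe lies between its 2 ends.
Ahr, chr6:54205172-54205231, minus strand: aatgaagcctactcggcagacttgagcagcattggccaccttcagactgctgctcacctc
Cyp1b1, chr6:2552004-2552063, minus strand: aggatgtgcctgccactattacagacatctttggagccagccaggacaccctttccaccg
Cyp1a2, chr8:61444103-61444724, minus strand: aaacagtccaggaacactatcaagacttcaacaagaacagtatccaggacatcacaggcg
Ugt1a6, chr9:87041702-87041761, plus strand: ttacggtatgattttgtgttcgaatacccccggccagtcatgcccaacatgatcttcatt

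Of the 9 genes, 3 were detected on all 4 arrays, namely Arnt, Tiparp and Ugt1a6. The other 6, Ahr, Ahrr, Cyp1a1, Cyp1a2, Cyp1b1 and Aldh3a1, were detected on none. Among all named genes 54.9% were detected on all arrays and 37.6% on none. The members were chosen with the detection of several of them already known, so the count is a description. For 5 members the call rests on 1 probe, namely Ahr, Ahrr, Cyp1a1, Tiparp and Aldh3a1.

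**Figure D1:**
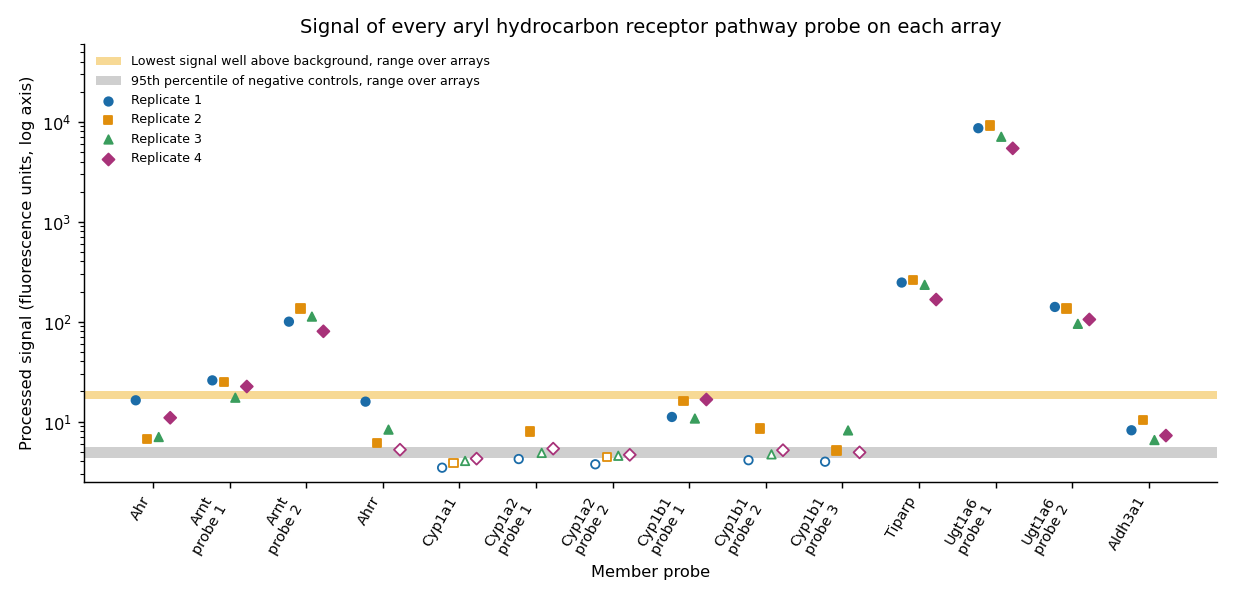
Processed signal (fluorescence units, log axis) of each of the 14 member probes on the 4 arrays, 1 point per replicate (mean of 10 spots for Ugt1a6 probe 1 and Aldh3a1), with open points for single-spot surrogate values and bands for the range over arrays of the lowest signal well above background (yellow) and the 95th percentile of negative controls (grey). The probes of Tiparp and Ugt1a6 and the second Arnt probe lie above both bands on every array, and Cyp1a1 lies below 5 units throughout.

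The 1 probe for the receptor gave a faint signal, and whether that probe responds to Ahr mRNA was not tested. Ahr had 16.3, 6.69, 6.99 and 10.9 units on replicates 1 to 4, below the lowest signal well above background on each array (16.7, 18.4, 19.1 and 20.3 units). Replicate 1 came closest to that lowest marked signal, and replicates 2 and 3 were the dimmest. The same spot was positive and significant on all 4 arrays, with the software's p for equality with background between 1.3e-21 and 2.8e-04. Only 5, 7, 9 and 6 of the 308 negative control spots, all of 1 probe, were as bright or brighter on replicates 1 to 4. Ahr was thus brighter than most negative control spots on every array, at a brightness that did not earn the stronger mark. By the weaker mark 5 of 9 members had signal on all 4 arrays, Ahr and Cyp1b1 joining the 3 detected genes, against 65.5% of named genes. Of all named genes, 4.47% were positive and significant on all arrays while well above background on none, and 2 members, Ahr and Cyp1b1, had this pattern.

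Arnt, the nuclear partner that the receptor shares with the hypoxia factors, was detected. Its probe at chr2:190390955-190391014 (rn4, plus strand) had 99.8, 136, 112 and 79.9 units on replicates 1 to 4. On the log2 scale relative to each array's 75th percentile, its level was -3.54 ± 0.15 (SD, n = 4). The other Arnt probe, at chr2:190385287-190385346, had 25.8, 24.8, 17.3 and 22.4 units and was well above background on 3 arrays, replicate 3 being the exception. It was positive and significant on all 4.

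Ahrr encodes the repressor that competes with the receptor for ARNT and is itself a classical target gene. Its 1 probe, at chr1:29894853-29894912, had 15.8, 6.1, 8.29 and 5.22 units on replicates 1 to 4. It was well above background on no array and positive and significant on 3, replicate 4 being a surrogate value.

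Sequence upstream of the members was examined for the core of the response element. RefSeq promoter windows on GRCr8 (250 bases before to 50 after the annotated start) were matched for 7 of the 9 members, all but Cyp1a1 and Aldh3a1. The letters GCGTG, read on both strands, were found in 5 of these 7, against 29.7% of 33469 windows of the same length. The longer form TNGCGTG, which contains the core, was found in 2 of 7, against 4.89% of all windows. The windows of 2 detected members and of 2 members not detected are shown, with GCGTG or its reverse complement CACGC in capitals.
Tiparp, chr2:152063519-152063818, plus strand: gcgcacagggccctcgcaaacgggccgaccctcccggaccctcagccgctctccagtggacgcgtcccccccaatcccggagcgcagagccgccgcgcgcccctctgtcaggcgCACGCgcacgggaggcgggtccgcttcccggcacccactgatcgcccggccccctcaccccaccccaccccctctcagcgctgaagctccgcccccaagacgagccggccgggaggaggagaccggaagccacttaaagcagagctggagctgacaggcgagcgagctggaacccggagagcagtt
Ugt1a6, chr9:96194768-96195067, plus strand: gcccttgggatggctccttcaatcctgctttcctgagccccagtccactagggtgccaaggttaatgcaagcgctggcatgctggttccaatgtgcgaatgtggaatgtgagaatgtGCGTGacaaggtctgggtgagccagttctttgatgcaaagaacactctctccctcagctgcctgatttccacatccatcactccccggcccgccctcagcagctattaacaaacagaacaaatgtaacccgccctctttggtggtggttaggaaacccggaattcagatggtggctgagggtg
Ahrr, chr1:30821969-30822268, plus strand: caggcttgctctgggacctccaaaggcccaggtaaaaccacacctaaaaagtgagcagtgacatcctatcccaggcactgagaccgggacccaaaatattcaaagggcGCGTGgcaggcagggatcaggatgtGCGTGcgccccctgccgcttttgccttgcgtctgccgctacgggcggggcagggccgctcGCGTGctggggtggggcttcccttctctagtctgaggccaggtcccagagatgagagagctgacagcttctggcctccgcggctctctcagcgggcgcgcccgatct
Cyp1b1, chr6:21094315-21094614, plus strand: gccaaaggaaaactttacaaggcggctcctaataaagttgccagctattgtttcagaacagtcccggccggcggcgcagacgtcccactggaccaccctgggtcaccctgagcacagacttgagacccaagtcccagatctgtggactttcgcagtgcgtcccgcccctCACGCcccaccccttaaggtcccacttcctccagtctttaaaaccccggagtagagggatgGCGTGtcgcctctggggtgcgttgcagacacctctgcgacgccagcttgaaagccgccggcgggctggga
Ahrr held 3 matches, beginning at -142, -117 and -57 relative to the start, and Cyp1b1 held 2. Tiparp, Ugt1a6 and Arnt held 1 each, and the windows of Ahr and Cyp1a2 held none. All 3 detected members thus had the letters in the window, as did 2 of the 4 matched members that were not detected. A match is a string of letters and not evidence of binding, and no match says only that these letters are not in this window.

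The cytochrome P450 genes of family 1, the usual readout of receptor activity, were well above background on no array. Whether their probes respond to these mRNAs was not tested, and neither was receptor activity. Cyp1a1, which oxidises polycyclic aromatic hydrocarbons, had 3.45, 3.84, 4.03 and 4.25 units on replicates 1 to 4, at chr8:61468133-61468192. All 4 are surrogate values, so they have no order. Between 264 and 274 of the 308 negative control spots were as bright or brighter. That count does not rank Cyp1a1 below those spots, because its values are surrogates. Nothing above background was recorded for Cyp1a1 by either mark on any array.

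Cyp1a2, the liver-enriched relative that metabolises caffeine and aromatic amines, was read by 2 probes. The Cyp1a2 probe shown above had 4.21, 7.97, 4.85 and 5.35 units, and was positive and significant on replicate 2 alone. Its values on the other replicates were surrogates. The other, at chr8:61439062-61439121, had surrogate values on all 4 arrays (3.73, 4.39, 4.54 and 4.64 units).

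Cyp1b1, which oxidises aromatic hydrocarbons and oestradiol outside the liver, was read by 3 probes that gave different marks. The probe shown above had 11.1, 16.0, 10.7 and 16.6 units on replicates 1 to 4 and was positive and significant on all of them. Its 4 values lay below the lowest signal well above background on each array, and 3 to 7 of 308 negative control spots were as bright. The probe at chr6:2548567-2548626 was positive and significant on replicate 2 alone, with 4.1, 8.48, 4.69 and 5.16 units. The probe at chr6:2548224-2548283 was so on replicates 2 and 3, with 3.96, 5.13, 8.14 and 4.91 units. For both of these probes, the values on the other replicates were surrogates. The 3 probes were thus positive and significant on 4, 1 and 2 arrays, and well above background on none.

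Tiparp encodes a mono-ADP-ribosyltransferase that modifies the receptor and curbs its signalling, and it is induced by receptor ligands in many cell types. Its 1 probe, at chr2:155338483-155338542, had 246, 261, 233 and 166 units on replicates 1 to 4. It was named by the array's symbol, since its transcript accession matched no gene of the RefSeq table. Its level was -2.45 ± 0.09 (SD, n = 4), and the widest pair of replicates differed 1.14-fold. Replicate 4 was the dimmest in raw signal and also had the lowest 75th percentile, and the scaled levels ran from -2.53 to -2.34.

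Ugt1a6 was detected by both of its probes, which are listed for different sets of transcripts. UGT1A enzymes attach glucuronic acid to phenols and other products of oxidation. Their transcripts are known to start from separate leading exons, 1 per isoform, and to share the remaining exons. The probe at chr9:87098271-87098330 is listed in the files for transcripts of 3 genes, Ugt1a5, Ugt1a6 and Ugt1a7c, and the files list at most 4 accessions for a probe. It was printed on 10 spots and averaged 8617, 9219, 7069 and 5416 units on replicates 1 to 4, with all 10 spots well above background on each array. Its level was 2.60 ± 0.09 (SD, n = 4). This signal cannot be assigned to Ugt1a6 alone.

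The probe shown above, at chr9:87041702-87041761, is listed for Ugt1a6 alone among RefSeq genes. It had 140.1, 134.7, 94.9 and 105 units on replicates 1 to 4 and was well above background on all of them. Its level was -3.38 ± 0.21 (SD, n = 4), and the detection call for Ugt1a6 did not depend on the shared probe. Whether the probe listed for Ugt1a6 alone also binds transcripts of other isoforms was not tested. Levels of the 2 probes are not comparable, because probes differ in brightness per transcript. On the log2 scale, deviations of the level from each probe's own mean differed in sign on replicates 2 and 4. The shared probe lay at 0.03 and -0.11 there, and the Ugt1a6 probe at -0.09 and 0.19.

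Probes for 2 further isoforms, Ugt1a8 and Ugt1a9, were not detected on all arrays. Ugt1a8 had 8.31, 10.5, 5.39 and 4.41 units, well above background on none, replicate 4 being a surrogate value. Of the 2 Ugt1a9 probes, 1 had 25.9, 20.0, 15.3 and 18.0 units, well above background on replicate 1 alone, and the other had surrogate values on all 4 arrays. No probe was named for Ugt1a1, Ugt1a2, Ugt1a3, Ugt1a5 or Ugt1a7c, although the shared probe also lists transcripts of Ugt1a5 and Ugt1a7c.

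Aldh3a1 encodes an aldehyde dehydrogenase that receptor ligands induce in rat liver. Its probe, at chr10:47374814-47374873, was printed on 10 spots and averaged 8.17, 10.3, 6.52 and 7.23 units on replicates 1 to 4. None of the 40 spots was well above background. On replicates 1 to 4, 8, 9, 3 and 8 of the 10 spots were positive and significant, so on replicate 3 most were not. Surrogate values stood for 2, 1, 7 and 2 of the 10 spots on replicates 1 to 4, and the averages include them. The coefficient of variation between spots, surrogates included, lay between 32.6% and 54.5%. It was 4.23% to 7% for the bright Ugt1a6 probe, which had no surrogate values.

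**Figure D2:**
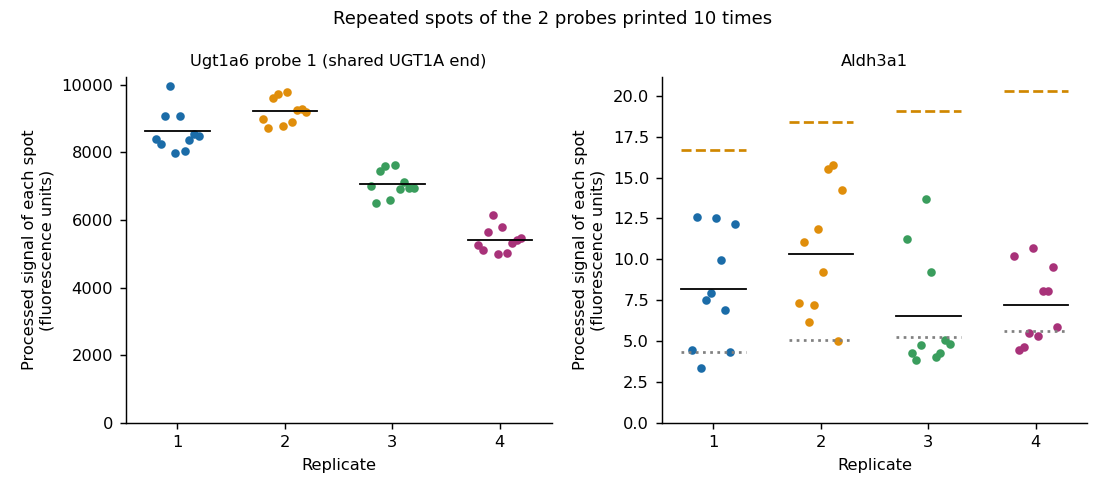
Processed signal (fluorescence units) of each of the 10 spots of the shared Ugt1a6 probe (left) and of the Aldh3a1 probe (right) on the 4 arrays. Some Aldh3a1 spots on each array are surrogate values. Black lines are array means; on the right, dotted lines are the 95th percentile of negative controls and dashed lines the lowest signal well above background, which no Aldh3a1 spot reached.

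Spread between cultures was set beside that of all detected genes. The SD of level was 0.15 for Arnt, 0.09 for Tiparp, 0.09 for the shared Ugt1a6 probe and 0.21 for the Ugt1a6 probe, against a median of 0.11 over 10339 detected named genes. The residual variance of each detected probe was tested in limma against a prior that follows mean signal, with Benjamini-Hochberg adjustment over the 19400 probes detected on all arrays (42.5% of all probes). Of these, 0.17% passed at 0.05. The prior SD was 0.19 for Arnt, 0.15 for Tiparp, 0.09 for the shared Ugt1a6 probe and 0.18 for the Ugt1a6 probe. None of the 4 detected member probes passed, with adjusted p from 0.996 to 0.997, and 0 of 4 had an unadjusted p under 0.05, against 6.5% of all probes tested.

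**Figure D3:**
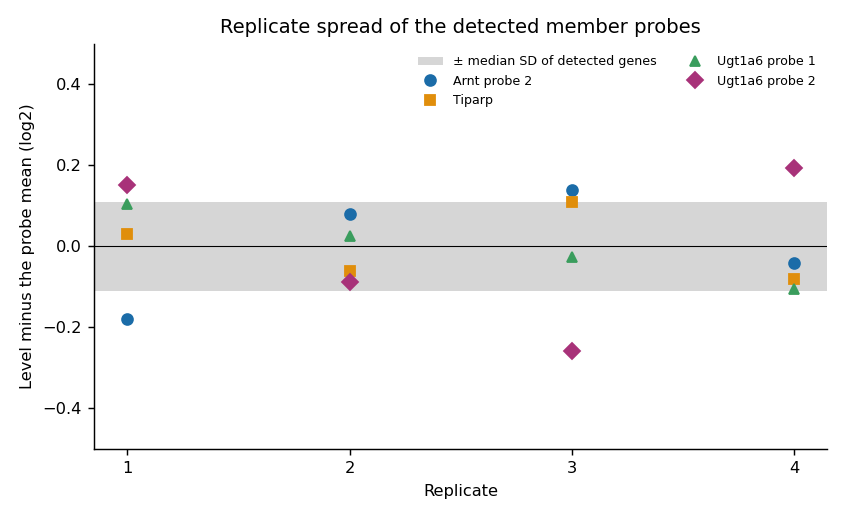
Level on each replicate minus the probe's mean (log2) for the 4 detected member probes. The grey band spans plus and minus the median SD of detected genes (0.11), whatever their mean signal. Ugt1a6 probe 2, listed for Ugt1a6 alone, ranged over 0.44 (0.28 without replicate 3) and Arnt over 0.33 (0.19 without replicate 1). The shared Ugt1a6 probe ranged over 0.21 (0.13 without replicate 1 or 4) and Tiparp over 0.19 (0.11 without replicate 3).

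Genes around the members were described through 8 lists that hold 108 different genes, of which 101 were on the array. The chaperones of the receptor's cytoplasmic complex were detected, although Ahr itself was not. The chaperones Hsp90aa1 (4.49 ± 0.02) and Hsp90ab1 (5.05 ± 0.10), the HSP90 partner Cdc37 (4.05 ± 0.07) and the p23 gene Ptges3 (2.87 ± 0.15) were measured on all arrays (level, SD, n = 4). Arnt2, the paralogue of Arnt, was detected by 1 of its 2 probes at -2.16, -2.38, -1.53 and -1.69 on replicates 1 to 4, with replicate 3 highest. It did not pass limma's variance test (adjusted p 0.401). Src, a kinase reported in the receptor complex, was detected on no array by any of its 3 probes. In all, 7 of 10 genes of this list were detected, the others being Ahr, Ahrr and Src.

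Coregulators of the receptor and genes of its degradation, taken as 1 list, were detected in 18 of 18 cases. They included the coactivators Ncoa1 (1.15 ± 0.13) and Ep300 (0.88 ± 0.08) and the remodeller Smarca4 (3.04 ± 0.06). The ubiquitin ligase part Cul4b (-0.34 ± 0.11) and the ubiquitin ligase Stub1 (3.54 ± 0.04) were also among them. The NF-kB subunits Rela (0.61 ± 0.07) and Relb (-0.29 ± 0.31), both known to bind the receptor, belonged to this list. Relb lay at -0.06, -0.13, -0.22 and -0.75 on replicates 1 to 4, lowest on replicate 4. It did not pass limma's variance test (adjusted p 0.416).

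Among bHLH-PAS relatives and partners of ARNT, 6 of 15 were detected. The hypoxia factor Hif1a, which also binds ARNT, lay at 1.05 ± 0.07, and the clock genes Clock, Per1, Per2 and Per3 and the neuronal factor Npas1 were the others. Epas1, Bmal1, Bmal2, Npas2, Npas3, Npas4, Sim1 and Sim2 were detected on no array, and Hif3a on 1.

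Of 20 genes reported as receptor targets, the 7 target members of the pathway included, 8 were detected. Beside Tiparp and Ugt1a6 these were the quinone reductase Nqo1 (-2.04 ± 0.09), the oxidative stress regulator Nfe2l2 (1.80 ± 0.14), Cyp2s1 (-4.68 ± 0.42), the cell cycle inhibitor Cdkn1b (0.56 ± 0.24), Ccng2 (-0.19 ± 0.13) and the amino acid transporter Slc7a5 (-3.89 ± 0.30). Gsta2 was detected on 1 array. Those detected on none included Selenbp1, Ereg, Serpinb2, Scin and Hes1. Nqo1 and Nfe2l2 are known to answer to other regulators as well. Whether the receptor acts on any of the 8 detected genes in these cells was not tested.

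Enzymes that make receptor ligands from tryptophan were mostly not detected. Ido1 and Tdo2, which open the tryptophan ring, had neither mark on any array, and Ido2 was detected on 2. Kmo, Kynu, Aadat, Haao and Tph1 were detected on none and Ddc on 1. Il4i1, also on this list, was matched by no probe and could not be read. Afmid (-1.72 ± 0.07), which yields kynurenine, Kyat1 (-1.36 ± 0.11), which converts kynurenine to kynurenic acid, and both parts of the transporter that carries tryptophan and kynurenine, Slc7a5 and Slc3a2 (2.59 ± 0.05), were the 4 of 13 detected.

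Partners of xenobiotic metabolism were detected in 10 of 13 cases. Por (0.15 ± 0.13), the reductase that feeds electrons to cytochrome P450, the epoxide hydrolase Ephx1 (-0.78 ± 0.16) and Gstp1 (2.31 ± 0.15) were among them. Of the relatives of Aldh3a1, Aldh3a2 (1.98 ± 0.04) and Aldh3b1 (-0.67 ± 0.12) were detected. Gstm1 was detected on no array and Sult1a1 on 1. In the PARP family, 13 of 14 genes were detected, including Parp1 (2.43 ± 0.09), Parp14 (1.28 ± 0.13) and Tiparp, and Parp8 was not. Across all lists, 64 genes were detected, of which limma's variance test called 0 (lowest adjusted p 0.401) and 4 had an unadjusted p under 0.05 (6.25%, against 6.5% of all probes tested).

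**Figure D4:**
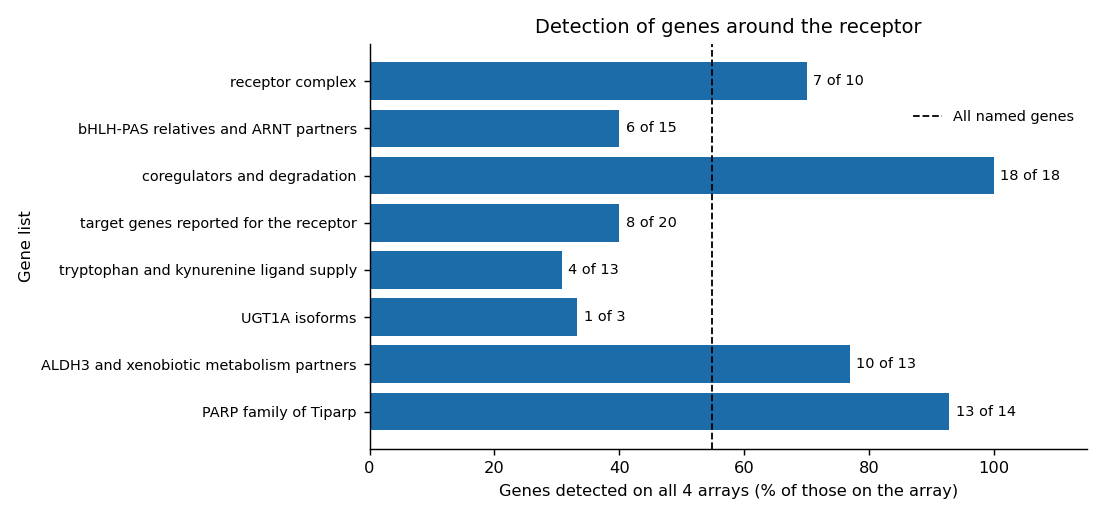
Share of each list's genes on the array that were detected on all 4 arrays (%), with counts beside the bars; the dashed line is the share of all named genes (54.9%). Coregulators and degradation (18 of 18) and the PARP family (13 of 14) lie right of the line, and ligand supply (4 of 13) and reported targets (8 of 20) left of it.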

How the data were processed

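Gene expression was measured in 4 samples of 1 group. Per the file headers, the authors scanned each array with Agilent Feature Extraction 11.0.1.1, with spatial detrending on and the further background correction off. The deposited intensity values (processed, mean and local background signal) are linear and not normalized between arrays. The deposited p-value that a spot equals its background and the software's marks were used as given, per the file headers. All 4 arrays lay on 1 slide, which left no slide batch to test, and precision is limited by their number.

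Spots marked non-uniform or population outliers (402 to 615 per array, none of them a member's) were left out, and no spot was saturated. Levels were log2 values of processed signal, averaged over a probe's spots, relative to the 75th percentile of the same array; the brightest detected probe stood for a gene of the lists. Probe names came from accessions matched to RefSeq GRCr8 (23845 probes), symbols (5129) or older symbols (352), and probes with placeholder names were not counted as named. Probe positions were taken from the files (rn4); promoter windows are RefSeq's, on GRCr8. The variance test used limma 3.58.1 under R 4.3.3, tested on simulated data; Python 3.11.15 and pandas 2.3.3 did the rest. Members and lists were chosen with earlier results of these data known, and every list gene could be named, but a few are counted in their lists and not reported here by name. No gene was named for a likeness to a member across samples, since 4 arrays are below the 6 set for a correlation. Alternatives covered the detection mark, arrays and probes required, flagged spots, normexp (offset 50), quantile and median scaling, the limma prior, the threshold and leaving out each replicate.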

Additional observations from a re-analysis of the deposited data

Results flagged for a closer look

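Levels of 65 detected probes and genes were examined for a replicate that stands apart from the other 3 by Dixon's 95% criterion, which chance meets in about 1 of 20 cases, so about 3.25 here. No member met it, and 3 list genes did. Parp3 was lowest on replicate 1, at -1.66 against -1.49 to -1.48 on the others (gap 0.947 of the range). The tankyrase gene Tnks was highest on replicate 2, at -0.63 against -0.82 to -0.80 (0.907). The ubiquitin ligase gene Stub1 was lowest on replicate 2, at 3.48 against 3.56 to 3.57 (0.838).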

How the results depend on the processing

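No paired analysis was possible because there was 1 group and hence no pair of groups. The count of members detected stayed at 3 when 2 arrays sufficed, when outlier spots were retained and without each replicate in turn. It was 2 when every probe of a gene was required, which removed Arnt. With the positive and significant mark in place of the stronger one it was 5, Ahr and Cyp1b1 being added. That mark also raised the UGT1A isoforms detected to 2 of 3. Requiring every probe reduced the bHLH-PAS list to 3 of 15. The level of the shared Ugt1a6 probe changed sign, to -0.39, when averaged with the Ugt1a6 probe, by construction. Normexp moved the levels of Arnt to -2.79, of Tiparp to -2.17 and of the Ugt1a6 probe to -2.84, and the cause was not tested. No member probe passed the variance test under any of its alternatives (limma, 0 of 4 also at an unadjusted p under 0.05, and 0 of 14 with no filter on dim probes). Over all probes that test called 33, against 270 with normexp, 1121 with no filter, and 0 without the robust step, without the trend, at 0.01 and without replicate 3. It called 75, 47 and 49 without replicates 1, 2 and 4. Signals near background limit what can be said of Ahr, Ahrr, Cyp1a2, Cyp1b1 and Aldh3a1. Cyp1a1 rests on 1 probe with surrogate values only, which limits what can be said of it as well.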
